A study of Mus musculus with 2 samples.

Results

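Strial marginal cells were described here as single-cell barcodes of mouse cochlea that were chosen by their transcripts. A barcode was a member if it held at least 500 UMIs (unique molecular identifiers, 1 per captured transcript), at least 300 genes and at most 20% mitochondrially encoded UMIs, at least 1 UMI of 3 or more of the 7 markers Kcne1, Kcnq1, Lmx1a, Esrrb, Wnk2, Hmx2 and Stac, and no UMI of Tyr or Pecam1. This selected 196 of 37556 kept barcodes, 78 of 17423 from the noise-only and 118 of 20133 from the drug library. Both libraries came from the cochlear sensory epithelium of wild-type C57BL/6J mice aged 4 to 6 weeks, dissociated with trypsin and captured with 10x Genomics 3′ v3.1 chemistry. All ears had received 105 dB noise in the octave band of 8 to 16 kHz for 2 hours, 2 days before dissection. The drug library came from 5 pooled ears that had received the drug, at 90 mg/ml, ahead of the noise. The noise-only library came from 5 pooled untreated contralateral ears of the same mice, so each mouse had 1 ear in each pool and the controls were noise-exposed ears of drug-treated animals. VPA is the title's short form for the drug, its full name is not written in the labels, and no route of application is given in the sources used here. The comparison asked which transcripts of these cells differed between the treated and the untreated ears.

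Marginal cells are the epithelial cells of the stria vascularis that face the endolymph of the cochlear duct. They secrete potassium into the endolymph through an apical channel formed by KCNQ1 and its subunit KCNE1, while Na,K-ATPase and the cotransporter NKCC1 (Slc12a2) load potassium across the basolateral membrane and chloride channels with their subunit barttin (Bsnd) return chloride. Together with intermediate and basal cells they sustain the endocochlear potential that drives hair cell transduction. Dark cells of the vestibular organs use the same machinery and share these markers, so the rule cannot tell them from marginal cells.

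Each group was 1 pooled library, so no test between the groups was possible. Levels are given as CPM, a gene's UMIs per 1000000 UMIs of the members, and ratios are drug over noise-only CPM. Every interval is a 95% interval for counting error alone and holds no spread between animals. The noise-only members held 357183 of 38380393 deposited UMIs, and the drug members 388396 of 39939170. The noise-only members reached 30219 UMIs with a median of 3794, and the drug members 12522 with a median of 2977.5. Other kept barcodes had medians of 1161 and 1209 UMIs, so members were deeper than the rest in both libraries. Mitochondrially encoded transcripts took a median of 9.19% and 7.69% of a member's UMIs, against 4.79% and 6.51% in other barcodes. No member's barcode sequence was a member in both libraries, although 111 sequences occurred in both barcode lists.

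The deepest noise-only member stood apart from the others in depth. It held 8.46% of all noise-only member UMIs, spread over 5985 genes, and it qualified with Lmx1a (2 UMIs), Wnk2 (1 UMI) and Hmx2 (5 UMIs) while Kcne1, Kcnq1 and Esrrb were at 0. Dnase1, the leading gene outside the rule, was at 0 as well. Of other genes high in members, the barcode held 24 UMIs of Enpep, 35 of Atp1b2, 5 of Lrp2 and 1 of Slc12a2. It also held 170 UMIs of Mia and 27 of the claudin gene Cldn8. Many results that rest on this barcode are given with and without it. It was not alone in lacking both Kcne1 and Dnase1. Both genes were at 0 in 6 noise-only members, this one among them, and in 6 drug members. Leaving out the deepest barcode kept the rest of these. The Scrublet caller marked 957 noise-only (5.49%) and 3036 drug barcodes (15.1%) as predicted doublets, among them 0 noise-only and 27 drug members (22.9%). Members were kept whatever the caller said, and removing the 27 left 91 drug members.

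Of the markers that chose the members, Kcne1 was the one most often found. It was found in 88.5% of the noise-only members and 94.9% of the drug members, against 0.796% and 1.52% of other barcodes, at 1274 and 1671 CPM. Kcnq1, the pore-forming partner of Kcne1, was found in 69.2% and 58.5% of members, and 47 noise-only and 67 drug members held both subunits of the channel. Esrrb, a nuclear receptor gene needed for marginal cell differentiation, was found in 50.0% and 72.0%. The homeobox gene Hmx2 was found in 51.3% and 53.4%, Wnk2, a kinase gene of chloride cotransporter control, in 46.2% and 43.2%, the LIM homeobox gene Lmx1a in 35.9% and 30.5%, and Stac in 30.8% and 17.8%. Most members lay near the threshold. Exactly 3 markers were found in 44 noise-only and 61 drug members, 4 markers in 18 and 35, and 5 or more in 16 and 22. Just outside, 107 and 161 barcodes held 2 markers. The exclusion of Tyr and Pecam1 removed 11 and 19 further barcodes, mostly by Tyr (8 and 17), a melanin synthesis gene of intermediate cells.

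Genes outside the rule showed what the members shared beyond it. Ranked by their fold over all other barcodes, in the library where that fold was smaller, Dnase1, a secreted endonuclease gene, came first at 114-fold in the noise-only and 108-fold in the drug library. It had a UMI in 83.3% and 89.8% of members and in 1.55% and 2.45% of other barcodes. High in the order were also Tmem45b (78.2-fold and 81.1-fold), the homeobox gene Gsc (61.4-fold and 47.4-fold) and the magnesium transporter gene Slc41a3 (54.8-fold and 46.4-fold). Enpep, the angiotensin-cleaving aminopeptidase A gene, stood at 43.6-fold and 37.2-fold, and Lrp2, the megalin endocytic receptor gene, at 26.3-fold and 34.2-fold. Dclk1 was found in 97.4% and 98.3% of members, the most of the 15 leading genes in the noise-only library. The others were Etnppl, Prom2, the desmosomal cadherin gene Dsg2, Gas2, the protease gene Pcsk6, the growth factor gene Igf1 and the Wnt agonist gene Rspo3, at 14.5-fold to 65.9-fold. These genes had no part in the rule, but they come from the same barcodes that the rule picked, so their folds describe the members and test nothing.

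**Figure D1:**
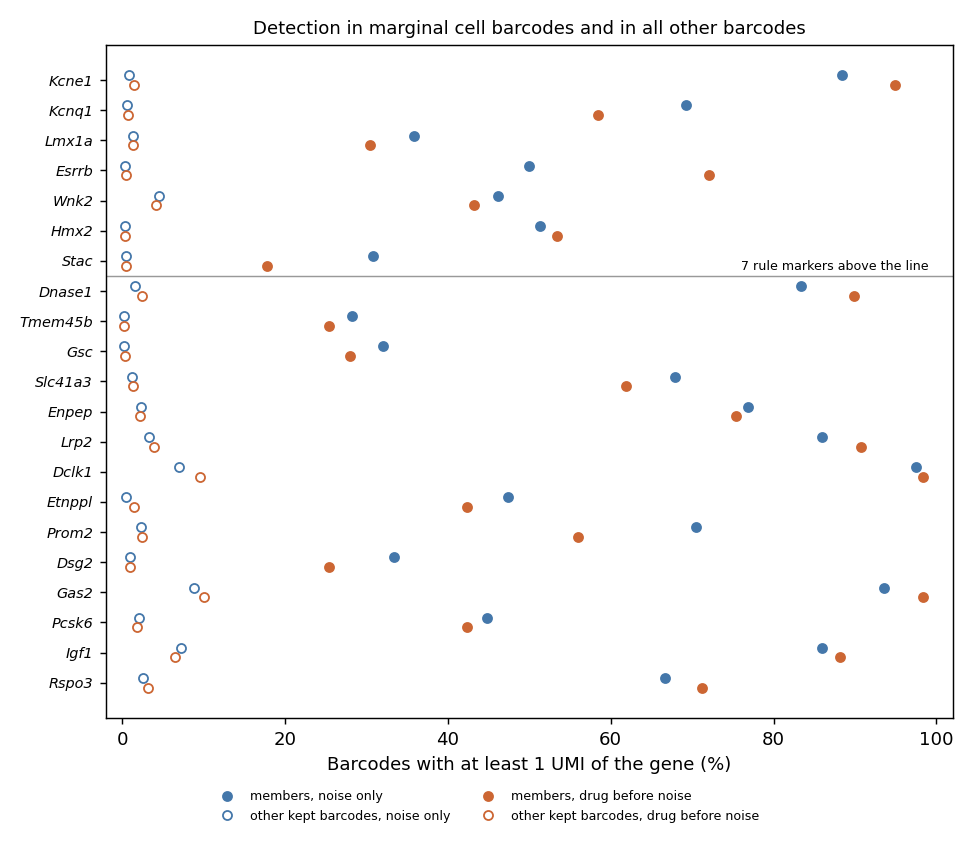
Share of barcodes with at least 1 UMI of each gene (x axis, percent) for the 7 rule markers and the leading genes outside the rule (y axis). Filled circles are members and open circles all other kept barcodes of the noise-only (blue) and drug (orange) libraries; Dclk1 reached 97.4% and 98.3% of members, and the highest open circle is Gas2 in the drug library at 10.1%.

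The number of rule markers tracked these other genes. At least 3 of the 5 genes Dnase1, Enpep, Lrp2, Slc12a2 and Atp1b2, picked after their values were seen, were found in 0.804% and 0.797% of barcodes with 0 markers (again without Tyr and Pecam1) and in 9.49% and 8.41% with 1 marker. In barcodes with 2 markers, just outside the rule, the shares were 46.7% and 47.8%. With 3 markers, just inside it, they were 86.4% and 86.9%, and with 4 markers 88.9% and 100%. Dnase1 stood at 1193 CPM in noise-only barcodes with 2 markers and 4833 CPM in those with 3. In the drug library the same step went from 2138 to 7472 CPM. Many barcodes just outside the rule thus carried the same further genes. Median UMIs were 3820 and 2910.5 in noise-only barcodes with 2 and 3 markers, so the step at 3 markers did not come with more UMIs.

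**Figure D2:**
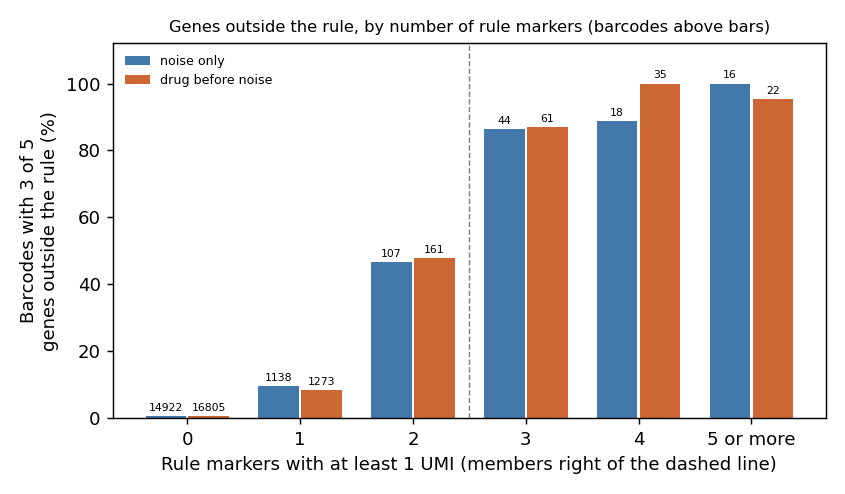
Share of barcodes with at least 3 of 5 genes that the rule does not use (y axis, percent), by the number of rule markers with a UMI (x axis), in the noise-only (blue) and drug (orange) libraries; numbers above bars are barcodes. The shares are 46.7% and 47.8% at 2 markers and 86.4% and 86.9% at 3, where membership begins.

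The basolateral machinery was present in both libraries. Slc12a2, the potassium-loading cotransporter gene, had 1228 and 1599 UMIs in members, 3438 and 4117 CPM, against 261 and 308 CPM in other barcodes. Atp1b2, a beta subunit gene of Na,K-ATPase, stood at 1475 and 1581 CPM. Bsnd, the barttin gene, was found in 20.5% and 19.5% of members and in 0.0288% and 0.0699% of other barcodes. Kcne1, Slc12a2 and Atp1b2 were found together in 58 of 78 noise-only and 108 of 118 drug members. Intermediate cells, taken as barcodes with 3 or more of 6 melanocyte genes (408 and 738 barcodes), had Slc12a2 at 1194 and 1126 CPM and Atp1b2 at 41.1 and 64.5 CPM. Epithelial barcodes with Slc26a4, the pendrin gene (141 and 166 barcodes), had Slc12a2 at 147 and 140 CPM and Atp1b2 at 441 and 393 CPM. Dnase1 stood at 119 and 111 CPM in the intermediate cells and at 25.9 and 17.0 CPM in the Slc26a4 epithelium, against 6266 and 8535 CPM in members.

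The most abundant transcript of the members was Ptgds, the prostaglandin D synthase gene. It took 8.22% of their UMIs in the noise-only and 10.7% in the drug library, 6.24 and 6.02 times its share in other barcodes, and every member held it. Spp1, the osteopontin gene, took 1.98% and 2.33%, 10.8 and 8.60 times its share elsewhere. Ptgds was also found in 57.7% and 79.3% of other barcodes and stood at 40106 and 31497 CPM in the intermediate cells. The part of free RNA in the members' level was not tested.

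Transcripts of other cell types were present in members, and several marker lists summed above the level of Kcne1. The 8 Schwann and satellite glia markers summed to 2212 and 2603 CPM, against 13799 and 9917 CPM in other barcodes, and 3 or more of them were found in 43 noise-only and 48 drug members. The 6 erythroid markers summed to 5331 and 7582 CPM, against 15097 and 21200 CPM elsewhere. The 8 intermediate cell markers summed to 675 CPM in the noise-only and 1424 CPM in the drug members. Choroid plexus markers differed most between the libraries, at 6467 and 30.9 CPM, against 4336 and 364 CPM in other barcodes. Of 2241 noise-only UMIs of Ttr, the transthyretin gene, 52.8% lay in 1 member, while the drug members held 2 UMIs in all. Neutrophil markers summed to 3539 and 5021 CPM, against 2141 and 5004 CPM in other barcodes, and 88.8% of the noise-only and 59.2% of the drug UMIs of S100a8 lay in 1 member of each library. Macrophage markers stood at 28.0 and 116 CPM, endothelial markers at 134 and 147 CPM, and osteoblast markers at 22.4 and 2.57 CPM. Neuron markers stood at 202 and 592 CPM, and hair cell markers at 244 and 636 CPM. Among members with at least 3 of the 5 genes outside the rule, the deepest noise-only barcode left out, neuron markers stood at 227 and 212 CPM. Hair cell markers stood at 266 and 297 CPM there. Many members thus held some RNA of another cell type. The 28 noise-only and 52 drug members with fewer than 3 markers of every other list are called the unmixed members. They held 86861 and 123992 UMIs and were shallower, with medians of 3113 and 2113.5 UMIs, and the noise-only ones reached 5355 UMIs. Because many differences between the libraries were smaller in the unmixed members, their ratios are given for many genes and lists beside those of all members.

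Members made up 0.448% of kept noise-only barcodes (0.354 to 0.558) and 0.586% of kept drug barcodes (0.485 to 0.701). The ratio of the shares was 1.31, with a counting interval of 0.975 to 1.77 that included 1. These are shares of captured barcodes, which dissection and dissociation can set, and marker levels and depth enter them too. With at most 10% mitochondrially encoded UMIs the members numbered 45 and 83 and the ratio was 1.83 (1.26 to 2.69). With Wnk2 and Stac left out of the rule it was 1.42 (1.01 to 2.02), and with 3 of the 5 further genes required and the deepest noise-only barcode left out 1.37 (1.002 to 1.88), so these intervals lay above 1. With at least 4 of the 7 markers the ratio was 1.45 (0.933 to 2.29), and that interval included 1. Removing predicted doublets, which were found among drug members only, left 78 and 91 members.

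Across the transcriptome, 3571 genes had at least 30 UMIs in the 2 sums together and were compared. As a description of size, 756 of them (21.2%) were past the fold, meaning that they differed by 1.5 times or more, with 324 higher (9.07%) and 432 lower (12.1%) in drug members. Without the deepest noise-only barcode, 325 of the same genes were higher (9.1%) and 391 lower (10.9%). The median log2 ratio of all genes compared was -0.04, and 0.02 in the unmixed members. Many genes stand near the minimum of 30 UMIs, where counting error alone can carry a ratio past 1.5, so the counts describe these sums and are no list of changed genes.

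Several of the marginal cell's own genes were higher in the sum of all drug members, but hardly in the unmixed ones. Esrrb had 65 UMIs in the noise-only and 136 in the drug members, a ratio of 1.92 (1.42 to 2.63). Because Esrrb helped to choose the members, it was also read in barcodes with at least 3 of the other 6 markers, where it had 40 and 82 UMIs and a ratio of 2.42 (1.64 to 3.63). Kcne1 had 455 and 649 UMIs, a ratio of 1.31 (1.16 to 1.48), and 1.41 (1.21 to 1.65) when read the same way. The deepest noise-only barcode, which held neither gene, was counted in both of these readings, and no ratio without it was computed for them. Dnase1 had 2238 and 3315 UMIs, a ratio of 1.36 (1.29 to 1.44). These genes were higher in other drug barcodes as well, at ratios of 1.71 for Esrrb, 1.91 for Kcne1 and 1.43 for Dnase1. Over single members Dnase1 ranged from 0 to 32945 CPM in the noise-only and from 0 to 48516 CPM in the drug library, with medians of 7261 and 8264 CPM and lower quartiles of 1092 and 4643 CPM. The ranges overlapped, and 13 noise-only and 12 drug members were at 0. Kcne1 had medians of 1606 and 1948 CPM per member and an interquartile range of 861 to 2287 CPM against 1095 to 2678 CPM. Esrrb was at 0 in 39 of 78 noise-only and 33 of 118 drug members. In the unmixed members the ratios were 1.22 for Esrrb (0.784 to 1.91, 34 and 59 UMIs), 1.0 for Kcne1 (0.832 to 1.22) and 1.0 for Dnase1 (0.924 to 1.09). With the rule applied to barcodes thinned to 1000 UMIs, which left 21 and 33 members, the log2 ratio of Dnase1 was -0.15 beside 0.45 in all members. The other rule markers had ratios of 1.10 for Kcnq1, 1.12 for Lmx1a, 1.23 for Wnk2, 1.0 for Hmx2 and 0.783 for Stac, with intervals that included 1. In the unmixed members these markers ranged from 0.701 for Stac (8 and 8 UMIs) to 2.80 for Lmx1a (4 and 16 UMIs). Those intervals included 1 as well.

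Ehd3, a gene of endocytic recycling, was higher in the drug library among all members, without the deepest noise-only barcode and among the unmixed members. It had 176 and 314 UMIs, a ratio of 1.64 (1.36 to 1.98), where other barcodes stood at 0.873, and in the unmixed members it had 66 and 132 UMIs and a ratio of 1.40 (1.03 to 1.91). After each member was thinned to 1000 UMIs, which left 76 noise-only and 115 drug members, Ehd3 was found in 35.5% and 59.1% of them. Unthinned, those shares were 80.8% and 86.4%, against 7.33% of other noise-only barcodes. Mt3, a metallothionein gene, had 821 and 1256 UMIs and a ratio of 1.41 (1.29 to 1.54), beside 1.04 in other barcodes. Its per-member median was 2962 CPM in the noise-only and 3552 CPM in the drug library. Also higher were Hadhb, a subunit gene of mitochondrial fatty acid oxidation (2.04, 1.22 to 3.50), Car14, a membrane carbonic anhydrase gene (1.78), Pfkfb3, a glycolytic regulator gene (1.71), and Qsox1, a sulfhydryl oxidase gene (1.70). Hpse, the heparanase gene, stood at 2.32 with 23 and 58 UMIs, and in the unmixed members it had 3 and 9. Hpse and Car14 were higher in intermediate cells than in members. Hpse stood at 1904 and 1707 CPM there against 64.4 and 149 CPM in members, and Car14 at 1041 and 884 CPM against 120 and 214 CPM. The part of intermediate cell RNA in their ratios was not tested. Ptgds stood at 1.31 in members and 1.35 in other barcodes, but at 0.847 in the unmixed members. Without the deepest noise-only barcode, the ratios of these genes were 1.51 for Ehd3, 1.29 for Mt3, 1.76 for Esrrb, 1.20 for Kcne1 and 1.25 for Dnase1. Among unmixed members they were 1.09 for Mt3 (0.943 to 1.26), 1.56 for Hadhb (9 and 20 UMIs), 1.31 for Car14, 1.40 for Pfkfb3 and 1.62 for Qsox1 (0.928 to 2.94).

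Dct, a melanin synthesis gene of intermediate cells, led the order at 165 and 440 UMIs and a ratio of 2.45 (2.05 to 2.95). It is no marginal cell gene, stood at 16945 and 15456 CPM in the intermediate cells against 462 and 1133 CPM in members, and its ratio was 1.55 in other barcodes. Of its noise-only UMIs, 35.2% lay in 1 member. The unmixed members gave it 25 and 45 UMIs, a ratio of 1.26 (0.757 to 2.15). The intermediate cell markers, whose sums were given with the other cell types, were higher in drug members too, and their part in the members' differences was not tested.

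Krt18, Krt8, Epcam and S100a11 were lower in the sum of drug members, while another keratin gene, Krt7, which was singled out after its values were seen, had 56 and 84 UMIs (1.38, 0.972 to 1.97). Krt18, an intermediate filament gene of simple epithelia, had 221 UMIs in the noise-only and 105 in the drug members, a ratio of 0.437 (0.343 to 0.554). Its partner Krt8, which was singled out after its values were seen, had 95 and 45 UMIs and a ratio of 0.436. Epcam, an epithelial adhesion gene, had 302 and 195 UMIs, a ratio of 0.594 (0.493 to 0.713). The calcium-binding protein gene S100a11 stood at 0.445 (0.349 to 0.565). Krt18 was found in 60.3% and 43.2% of members, and in 30.3% and 21.7% after thinning. In other barcodes the ratios were 0.844 for Krt18, 0.979 for Epcam and 1.30 for S100a11, and in the Slc26a4 epithelium 1.06, 0.768 and 0.992. The deepest noise-only barcode held 19.5% of the noise-only Epcam UMIs and 9.95% of those of Krt18. Without it, Krt18 stood at 0.444 and Epcam at 0.676. Of the Krt18 UMIs, 42 lay in the noise-only member with 10637 UMIs and 29 in the one with 9699. Both had Kcne1 at 0, as did the deepest barcode. Another 20 lay in a noise-only member that held Kcne1. Among unmixed members, Krt18 had 39 and 43 UMIs and stood at 0.772 (0.489 to 1.22), Epcam at 0.787 (0.542 to 1.14) and S100a11 at 0.914 (0.513 to 1.65), all with intervals that included 1. Krt8 stood at 0.467 there, on 18 and 12 UMIs.

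Further lower genes had housekeeping or regulatory roles. The prothymosin gene Ptma stood at 0.624, the elongation factor gene Eef1a1 at 0.719, and the cold-inducible RNA-binding protein gene Rbm3 at 0.505. The TWEAK receptor gene Tnfrsf12a stood at 0.498 and the survival factor gene Mcl1 at 0.460. Of transcription factor genes, Nfix stood at 0.556 and Nfib at 0.605. Among genes found at least 2 times as often in members as elsewhere, Hras (0.516), the anaphase-promoting complex gene Anapc11 (0.535), the proteasome gene Psmd7 (0.566), the phosphatase gene Ptp4a2 (0.609) and the mitotic checkpoint gene Bub3 (0.628) were also named. Those shares were unthinned, and members were deeper. After thinning, Hras was found in 10.5% of noise-only members and 10.7% of other noise-only barcodes. Psmd7 was found in 17.1% and 14.9%, Ptp4a2 in 17.1% and 15.0%, Anapc11 in 17.1% and 11.6%, and Bub3 in 28.9% and 6.61%. Of these genes, only Bub3 stayed at 2 times or more. Psmd7 was found in 51.3% and 25.4% of members, at 65 and 40 UMIs, and in 17.1% and 3.48% after thinning. Drug members had fewer UMIs each, which can lower unthinned shares. Without the deepest noise-only barcode, Ptma stood at 0.691 and Nfib at 0.679, no longer past the fold, and Eef1a1 at 0.788. The other genes of this paragraph stayed past it, from 0.489 for Mcl1 to 0.664 for Bub3. Restricted to unmixed members, Psmd7 stood at 0.377 (0.127 to 1.02), Nfib at 0.640 and Nfix at 0.400 (14 and 8 UMIs), while Ptma stood at 1.09, Bub3 at 1.11 and Rbm3 at 0.817. Mcl1 had 2 and 5 UMIs there.

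**Figure D3:**
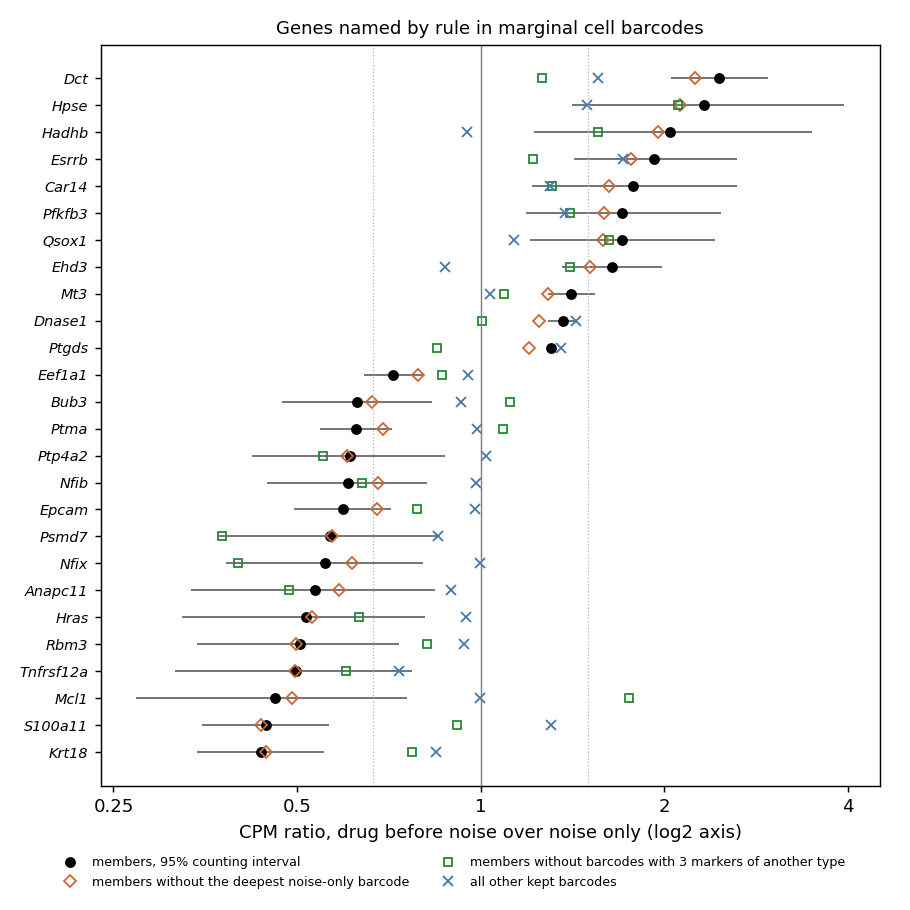
Ratio of drug to noise-only CPM (x axis, log2 scale) for the genes named by rule (y axis): black circles with lines are members with 95% counting intervals, open diamonds members without the deepest noise-only barcode, green squares the unmixed members, crosses all other kept barcodes, and dotted lines mark 1.5 and 1/1.5. Krt18 (0.437) has its square at 0.772 and its cross at 0.844, and Ehd3 (1.64) has its square at 1.40 and its cross at 0.873.

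Among all members, no partner of potassium secretion passed the 1.5 fold in either direction. Of 13 partners, 9 were measured, with a median log2 ratio of 0.24 beside -0.04 for all genes compared and 0.19 for the same genes in other barcodes. Slc12a2 stood at 1.20 (1.11 to 1.29), the Na,K-ATPase beta subunit genes Atp1b1 at 1.29 (1.05 to 1.58), Atp1b2 at 1.07 and Atp1b3 at 1.42 (0.973 to 2.08). Bsnd stood at 0.961 (0.512 to 1.81), and the kinase genes Stk39 and Wnk1, which regulate NKCC1, at 1.10 and 0.791. Without the deepest noise-only barcode the median was 0.13, and Slc12a2 stood at 1.10. When Wnk2 and Stac were left out of the rule, the median was -0.0012. In the unmixed members it was -0.11, with Slc12a2 at 0.962 (0.856 to 1.08) and Atp1b2 at 0.889 (0.737 to 1.07). Of the 9 partners, 1 was past the fold upward there (Atp1b1, 16 and 38 UMIs) and 2 downward (Atp1b3, 16 and 14 UMIs, and Bsnd, 8 and 7 UMIs). On these few UMIs 23.3% of all genes compared were higher and 17.7% lower. The 15 leading genes had ratios from 0.938 for Rspo3 to 1.38 for Gsc, so none of them was past the fold among all members.

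Other genes reported for marginal cells, mostly developmental regulators, had a median log2 ratio of -0.0011 over the 8 measured of 10. The homeobox gene Hmx3 had 22 and 24 UMIs, a ratio of 1.0 (0.539 to 1.88). Pax2 stood at 1.24, Eya4 at 0.728 and Shroom3, an apical constriction gene, at 1.77 (0.898 to 3.66, 14 and 27 UMIs). Acid-base and other ion transport genes had a median of 0.28 over 9 measured of 21, with 3 past the fold upward, where 9.07% of all genes compared were, and 0 downward. The carbonic anhydrase gene Car12 was higher at 46 and 76 UMIs (1.52, 1.04 to 2.24), Car2 at 23 and 38 UMIs (1.52, 0.882 to 2.67), and the cation channel gene Trpm7 at 10 and 21 UMIs (1.93, 0.87 to 4.59). The plasma membrane calcium pump gene Atp2b1 stood at 1.22 (1.01 to 1.47) and the proton pump gene Atp6v1a at 1.37. Leaving out the deepest noise-only barcode gave a median of 0.26, and Car12 stood at 1.39. There 1 gene (Trpm7) was past the fold upward, where 9.1% of all genes compared were. The median was 0.55 in the unmixed members, where Car12 stood at 1.47 (0.845 to 2.64) and Atp2b1 at 1.47 (1.04 to 2.12).

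Tight junction and polarity genes lay on the lower side in the sum of all drug members, but not in the unmixed ones. Of 26 listed, 11 were measured, 0 were past the fold upward and 5 of 11 downward, where 12.1% of all genes compared were, with a median log2 ratio of -0.55 against -0.01 for the same genes in other barcodes. The claudins seal the marginal cell layer. Cldn3 had 77 and 36 UMIs (0.430, 0.281 to 0.647), Cldn4 36 and 16 (0.409, 0.212 to 0.756), Cldn7 87 and 62 (0.655, 0.465 to 0.918) and Cldn8 57 and 39 (0.629, 0.408 to 0.962). Cldn9 had 123 and 91 UMIs (0.680, 0.513 to 0.899) and was found in 60.3% and 39.8% of members. Occludin (Ocln) stood at 1.11 and E-cadherin (Cdh1) at 0.872. The count of lower genes moved with the deepest noise-only barcode, which held 27 of the 57 Cldn8 UMIs and 26.0% of the Cldn3 UMIs. Without it, 1 of the 11 was lower, where 10.9% of all genes compared were, and the median was -0.42. Cldn8 then stood at 1.09, Cldn7 at 0.746, Cldn4 at 0.673, Cldn3 at 0.532 and Cldn9 at 0.672. The 5 lower genes among all members were Cldn3, Cldn4, Cldn7, Cldn8 and Epcam, while Cldn9 was just short of the fold. Without the deepest noise-only barcode, Cldn4 and Epcam (0.676) lay just short of it too. When 3 of the 5 further genes were required as well, 3 of the 11 were lower, beside 12.3% of all genes compared (8.63% were higher). The unmixed members had a median of -0.0065, with 3 of the 11 higher and 3 lower, beside 23.3% and 17.7% of all genes compared. Cldn9 was still lower there, with 39 and 31 UMIs (0.557, 0.336 to 0.916), while Cldn3 stood at 1.05 on 8 and 12 UMIs and Cldn7 at 0.865 on 17 and 21.

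Energy metabolism differed little. The 13 mitochondrially encoded transcripts had a median log2 ratio of 0.12 in members, with 0 past the fold, where the same genes stood at 0.39 in other barcodes. Among them mt-Nd3 stood at 1.33 (1.15 to 1.53), mt-Co1 at 1.06, mt-Atp6 at 0.998 and mt-Nd4 at 0.996. The median was 0.01 when the deepest noise-only barcode was left out. Nuclear respiratory chain genes had a median of 0.14 over 80 measured of 85, with 2 higher and 1 lower, beside 9.07% and 12.1% of all genes compared. Without that barcode 0 were higher and 1 lower, beside 9.1% and 10.9%. Mitochondrial regulators and energy genes had 0.33 over 11, with the creatine kinase gene Ckmt1 at 2.45 (9 and 24 UMIs) and the fusion gene Opa1 at 1.84 (0.885 to 4.04) past the fold, and the outer membrane channel gene Vdac1 at 1.35 (1.06 to 1.74). Glycolysis and hypoxia genes had 0.12 over 17 measured, with the hypoxia-induced gene Ndrg1 (1.52, 0.882 to 2.67) past the fold. The direction of these 4 medians was not stable. With at least 4 markers they were -0.03, -0.00095, -0.06 and -0.01 in the same order, and over the same genes in the unmixed members -0.12, 0.04, 0.05 and -0.06. Vdac1 stood at 1.04 in the unmixed members.

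**Figure D4:**
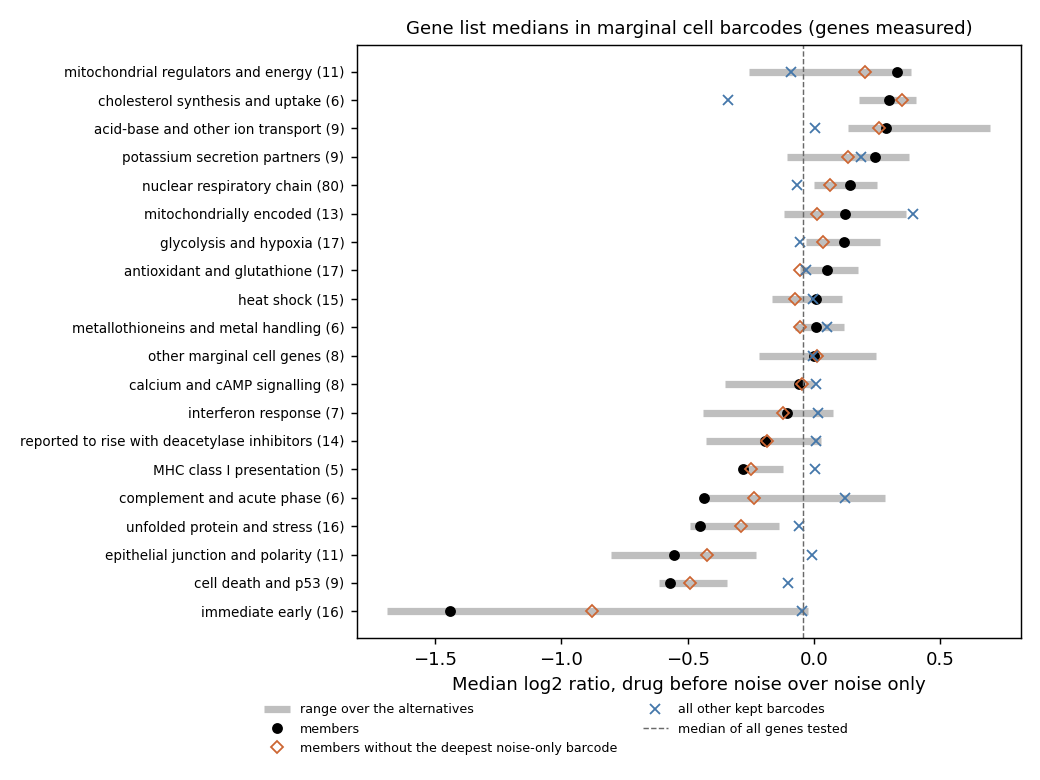
Median log2 ratio of drug to noise-only CPM (x axis) for each gene list with at least 5 genes measured (y axis, genes measured in brackets). Circles are members, open diamonds members without the deepest noise-only barcode, crosses the same genes in other barcodes, grey bars the range over all alternatives, and the dashed line the median of all genes compared at -0.04; immediate early genes lie lowest at -1.44, with a bar that reaches -0.02.

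Immediate early genes, which are induced within minutes by stimuli and by cell dissociation, had the lowest list median. Of 22, 16 were measured, 13 of 16 were past the fold downward, where 12.1% of all genes compared were, and 0 upward, with a median log2 ratio of -1.44. Fos had 829 UMIs in the noise-only and 419 in the drug members (0.465, 0.412 to 0.523), Jun 587 and 238 (0.373), Junb 508 and 203 (0.367), Egr1 637 and 234 (0.338), Btg2 290 and 67 (0.212) and Atf3 487 and 96 (0.181). Ier3, Klf2 and Dusp1 stood at 1.04, 1.02 and 0.807. The same genes had a median of -0.05 in other barcodes.

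A few members carried most of this difference. Summed over the list, the deepest noise-only barcode held 41.8% of the noise-only UMIs and the 5 richest members held 73.0%, against 49.1% in the 5 richest drug members. Of the 5 richest noise-only members, those with 30219, 10637 and 6669 UMIs had Kcne1 and Dnase1 at 0. Those with 9893 and 5405 UMIs held Kcne1. Of the 5 richest drug members, those with 10227 and 9521 UMIs had both genes at 0. Those with 8209, 6413 and 2442 UMIs held Kcne1. Immediate early UMIs took more than 2% of the UMIs in 8 noise-only and 3 drug members. The median member stood at 0.142% (interquartile range 0.0616 to 0.456) in the noise-only and 0.118% (0.0479 to 0.392) in the drug library, so the middle ranges of the 2 libraries overlapped. In other barcodes the medians were 1.59% and 1.36%, above the upper quartile of the members in each library. After thinning, Fos was found in 36.8% and 30.4% of members, against 70.4% and 68.6% of other barcodes. Without the deepest noise-only barcode, Fos stood at 0.607, Jun at 0.547, Egr1 at 0.614 and Atf3 at 0.389. There 12 of the 16 genes were past the fold downward, where 10.9% of all genes compared were, and the median was -0.88. Over the unmixed members the median of the 16 genes was -0.02. Jun (33 and 22 UMIs, 0.467, 0.259 to 0.825), Btg2 (18 and 8 UMIs, 0.311, 0.117 to 0.753) and Atf3 (36 and 11 UMIs, 0.214, 0.0983 to 0.430) were lower in the drug library there too. Fos stood at 0.975 (46 and 64 UMIs), Junb at 1.01 (16 and 23 UMIs) and Egr1 at 2.41 (9 and 31 UMIs, 1.12 to 5.76).

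**Figure D5:**
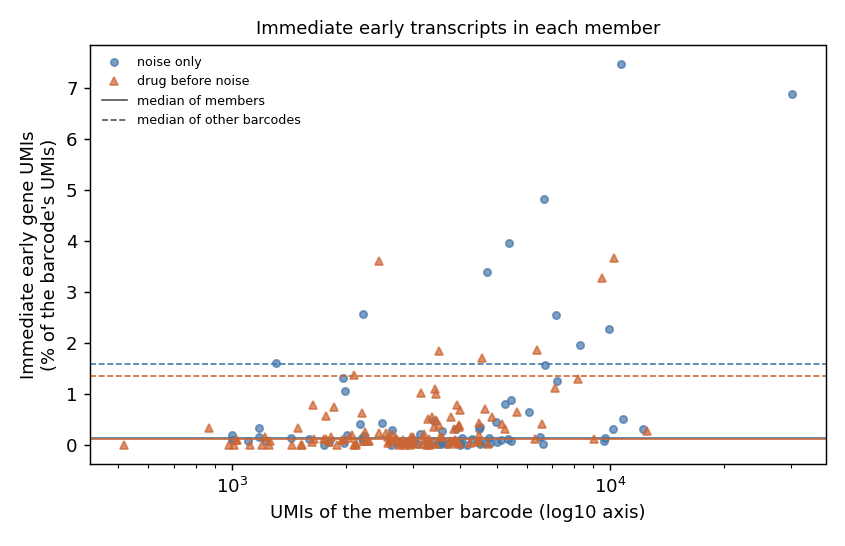
UMIs of immediate early genes as a share of each member's UMIs (y axis, percent) against the member's UMIs (x axis, log10 scale), for noise-only (blue circles) and drug members (orange triangles). Solid lines mark the members' medians (0.142% and 0.118%), dashed lines those of other barcodes (1.59% and 1.36%), and the rightmost circle is the deepest noise-only barcode with 30219 UMIs.

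Chaperone and stress genes showed a mixed picture. Lists can share genes, and a shared gene counts in each. Atf3 is in the immediate early and unfolded protein lists, and Hspa5 in the unfolded protein and heat shock lists. Unfolded protein genes had a median log2 ratio of -0.45 over 16 measured of 20, with 3 lower and 0 higher, which is near the 12.1% and 9.07% of all genes compared. In the unmixed members the median was -0.34, with 5 lower and 0 higher, beside 17.7% and 23.3%. Hspa5, the main chaperone gene of the endoplasmic reticulum, had 194 and 137 UMIs (0.649, 0.518 to 0.812) and stood at 0.634 without the deepest noise-only barcode and at 0.507 (0.316 to 0.805) in the unmixed members. Heat shock genes had a median of 0.01 over 15, with 1 higher and 3 lower, beside 9.07% and 12.1% of all genes compared. Without that barcode 3 were higher and 2 lower, beside 9.1% and 10.9%. Among all members Hspb1 stood at 0.595 (0.468 to 0.753) and Dnajb1 at 0.483 (0.302 to 0.759). Hspb1 stood at 0.808 without that barcode and at 1.79 (0.798 to 4.40) in the unmixed members. Cell death and p53 genes had a median of -0.57 over 9 measured of 22, with 4 lower and 1 higher, beside 12.1% and 9.07% of all genes compared. The lower ones were Mcl1, the cyclin G1 gene Ccng1 (0.475), Gadd45b (0.546) and Phlda3 (0.536), and the higher one was Ei24 (1.96, 15 and 32 UMIs). Mcl1 protects from cell death, whereas Ccng1 and Phlda3 are targets of p53, so the lower genes had opposed roles. With the deepest noise-only barcode left out the median was -0.49, and in the unmixed members 0.22.

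Antioxidant and metal-handling genes lay near the median of all genes. The 17 measured antioxidant genes had a median log2 ratio of 0.05, with Gclc, a gene of glutathione synthesis, past the fold at 19 and 40 UMIs (1.94, 1.10 to 3.54). Gpx3, a secreted glutathione peroxidase gene, had 452 and 602 UMIs (1.22, 1.08 to 1.39), Gsta4 stood at 1.32 and Gpx4 at 0.887. Gpx3 was found in 85.9% and 95.8% of members and in 6.64% and 7.82% of other barcodes. Metallothionein and metal genes had a median of 0.01 over 6, in which Mt3 (1.41) and Mt1 (0.866, 0.764 to 0.982) lay on opposite sides of 1.

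Immune gene lists were thinly measured. Interferon response genes had 7 of 30 measured, with a median log2 ratio of -0.11 and 3 lower, beside 12.1% of all genes compared. Irf1, an interferon-induced transcription factor gene, had 44 and 13 UMIs (0.272, 0.134 to 0.514) and the GTPase gene Irgm1 26 and 8 (0.283), with 38.6% and 38.5% of the noise-only UMIs in 1 member, while Ifi27 stood at 1.08. MHC class I genes had a median of -0.28 over 5, with 0 past the fold, H2-K1 at 0.823 and B2m at 0.943. Complement and acute-phase genes had 2 higher and 3 lower among 6, beside 9.07% and 12.1% of all genes compared, at a median of -0.44. The chaperone gene Clu had 253 and 116 UMIs (0.422), of which 41.1% of the noise-only UMIs lay in 1 member. The lipocalin gene Lcn2 had 4 and 113 UMIs (26.0, 9.87 to 97.0), with 58.4% of the drug UMIs in 1 member and a UMI in 5 of 118 drug members. The unmixed members held Clu at 7 and 32 UMIs (3.2, 1.39 to 8.60) and Lcn2 at 0 in both libraries. The cytokine inhibitor gene Socs3 stood at 0.454. Of cytokine and NF-kB genes, 3 of 23 were measured.

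Histone deacetylases remove acetyl groups from histones, and their genes and genes reported to rise with their inhibitors were read as 2 further lists. Whether the drug is such an inhibitor is not written in the labels. In members, 3 of 14 deacetylase genes were measured, at 1.03 for Hdac1 (17 and 19 UMIs, 0.506 to 2.10), 0.920 for Hdac3 and 1.13 for Sirt2. Of 16 genes reported to rise with inhibitors, 14 were measured, with a median log2 ratio of -0.20, 1 higher and 4 lower, beside 9.07% and 12.1% of all genes compared. Without the deepest noise-only barcode 3 were higher and 3 lower, beside 9.1% and 10.9%. The higher one among all members was the neurofilament gene Nefl, with 12 and 69 UMIs (5.29) and 76.8% of the drug UMIs in 1 member. The lower ones were Clu, the actin-severing gelsolin gene Gsn (0.431, 0.285 to 0.642), the linker histone gene H1f0 (0.625) and Klf4 (0.472). Cdkn1a, a cell cycle inhibitor gene often used as a readout of deacetylase inhibition, stood at 0.872 (0.666 to 1.14). In the unmixed members the median was 0.27, with 5 higher and 0 lower, beside 23.3% and 17.7% of all genes compared. Gsn stood at 1.05 (4 and 6 UMIs) there, H1f0 at 1.09 (9 and 14 UMIs) and Klf4 at 2.80 (1 and 4 UMIs).

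Of the remaining lists, cholesterol genes had a median log2 ratio of 0.30 over 6 measured, where other barcodes stood at -0.34. Among all members 0 were past the fold. Without the deepest noise-only barcode 2 were higher, beside 9.1% of all genes compared. Steroid-responsive genes had 4 of 13 measured, with Sgk1, an aldosterone- and glucocorticoid-induced kinase gene, at 0.876 (0.659 to 1.16) and Klf9 at 0.559 (0.377 to 0.821), or 1.17 (6 and 10 UMIs) in the unmixed members. Calcium and cAMP signalling genes had a median of -0.06 over 8, with 2 higher and 0 lower, beside 9.07% and 12.1% of all genes compared. The higher ones were the protein kinase A subunit gene Prkaca (1.61, 0.841 to 3.18, 16 and 28 UMIs) and the cAMP phosphodiesterase gene Pde4d (1.92, 0.900 to 4.37, 11 and 23 UMIs). The calcium release channel gene Itpr1 stood at 0.771 (0.599 to 0.990).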

How the data were processed

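Values in the deposited files were unnormalized UMI counts for each gene in each barcode, from Cell Ranger 5.0.1 per the file headers. The submitters' processing notes name Cell Ranger 5.0, STAR and Seurat 3.2.2, and as builds GRCm38 and mm10, without saying what each did. The labels name separate captures for the 2 groups. Counts of members were summed per library and divided by the members' total (CPM). Ratios have exact conditional binomial 95% intervals, shares exact binomial ones, both for counting error only. For log2 ratios, 0.5 UMI was added to the sums. A gene was compared from 30 UMIs over both sums, and 3 counts stand at 8.40 and 7.72 CPM. The members, gene lists and rules were chosen with earlier results of these data known. Genes were named among those that reached 50 UMIs in one of the sums, found in at least 5% of members and with at most 20% of UMIs in 1 cell where higher, by the interval bound nearest to 1: 10 per direction among all genes, and 10 per direction among genes at least 2 times as frequent in members as elsewhere. Rule markers, 15 leading genes (found in at least 20% of members) and up to 4 genes per list were also named; Krt8, Ttr, S100a8, Mia, Spp1 and further list genes beyond 4 were added after values were seen, and some genes that these rules pick are not reported here. Doublets were predicted with Scrublet in scanpy 1.11.5, at an assumed rate of 0.08, and kept. Barcodes were thinned to 1000 UMIs with a fixed seed. The ratio, thinning and rule steps were tested on simulated data. Software was matplotlib 3.10.9, scipy 1.17.1, numpy 2.4.6 and pandas 2.3.3 under Python 3.11.15 and, for TMM factors, edgeR 4.0.16 in R 4.3.3.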

Additional observations from a re-analysis of the deposited data

How the results depend on the processing

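No paired analysis was possible because each group was 1 pooled library. For the same reason nothing here was tested, no library was left out, and the cause was not tested for any value that changed. Over all alternatives 2166 values were computed. Of 1876 log2 ratios of single genes, 164 changed sign, and 31 of these were past the fold among all members. Of 251 list medians 52 changed sign, and 23 of these were at least 0.1 in size among all members. These 31 gene values and 23 medians are given here, with the counts, shares and medians that moved beyond their limits, which were 1.5 times for counts and the interval of the value among all members for the rest. TMM factors and totals without mitochondrially encoded genes moved no count, share or list median beyond these limits, although each turned 1 median of under 0.1. Depth limits most lists, since genes near 30 UMIs have wide counting intervals.

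The alternatives of the member rule had the widest effect. All values from here are log2 ratios unless they are counts. With at least 4 of 7 markers (34 and 57 members), 129 genes were higher and 173 lower among 1564 compared. List medians were 0.70 for acid-base transport, -0.029 for mitochondrially encoded genes, -0.00095 for the nuclear respiratory chain, -0.057 for mitochondrial regulators and -0.010 for glycolysis, and Mia stood at 0.13, Cldn8 at 0.12, Prkaca at -0.068 and Lcn2, on 1 and 0 UMIs, at -1.80. With Wnk2 and Stac left out of the markers (56 and 92 members), 222 of 2407 genes were lower. Medians were -0.0012 for potassium secretion, -0.063 for mitochondrially encoded genes, 0.033 for the nuclear respiratory chain, -0.048 for mitochondrial regulators, -0.031 for glycolysis, -0.93 for immediate early genes and 0.050 for interferon genes.

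With the rule applied to thinned barcodes (21 and 33 members), 39 genes were higher and 49 lower among 538. Medians were -0.11 for mitochondrially encoded genes, 0.0069 for the nuclear respiratory chain, -0.014 for mitochondrial regulators and 0.26 for glycolysis. In all, 28 single genes changed sign, of which 10 were past the fold among all members: Cldn8 (2.44), Krt8 (0.37), Nfix (0.18), Nfib (0.27), Hras (0.37), Shroom3 (-0.13), Ckmt1 (-0.37), Fos (0.14), Btg2 (0.52) and Clu (0.57).

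Among the unmixed members, with the minimum of 30 UMIs applied anew, 68 genes were higher and 64 lower among 854. Medians were -0.11 for potassium secretion, -0.12 for mitochondrially encoded genes, 0.027 for the nuclear respiratory chain, -0.26 for mitochondrial regulators, -0.027 for glycolysis and -0.022 for immediate early genes. In all, 39 single genes changed sign, of which 14 were past the fold among all members: Cldn8 (0.45), Ptma (0.11), Mcl1 (0.62), Bub3 (0.14), Cldn3 (0.043), Ndrg1 (-2.10), Egr1 (1.22), Hspb1 (0.79), Irf1 (0.71), Clu (1.60), Gsn (0.017), H1f0 (0.10), Klf4 (1.07) and Klf9 (0.18).

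Removing predicted doublets (78 and 91 members) gave 0.24 for mitochondrially encoded genes, 0.25 for the nuclear respiratory chain and 0.26 for glycolysis. A minimum of 1000 genes per barcode (60 and 88 members) gave 0.020 for interferon genes. At most 10% mitochondrially encoded UMIs gave 1.83 for the ratio of shares of barcodes, 0.36 for mitochondrially encoded genes and 0.28 for complement.

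Means of CPM per cell in place of sums gave -0.060 for mitochondrially encoded genes, 0.026 for the nuclear respiratory chain and -0.96 for immediate early genes. A minimum of 1 UMI left 3991 genes higher and 3726 lower among 14207, and a minimum of 100 UMIs left 35 and 80 among 990. With the member richest in each gene left out for that gene, medians were -1.02 for immediate early genes and 0.029 for the deacetylase inhibitor list, and Cldn8 stood at 0.10.

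Leaving out the deepest noise-only member was chosen after seeing the data. It gave 0.011 for mitochondrially encoded genes, 0.063 for the nuclear respiratory chain, -0.88 for immediate early genes, 0.18 for the 5 complement genes that still reached 30 UMIs and 0.12 for Cldn8. Asking also for 3 of the 5 further genes (69 and 109 members), likewise chosen after seeing the data, gave 0.055 for the nuclear respiratory chain, -0.0027 for glycolysis, -1.01 for immediate early genes, 0.074 for interferon genes, 0.13 for complement and 0.14 for Cldn8.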
